A study of Homo sapiens with 49 samples.

Results

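SIN3A binding was mapped by chromatin immunoprecipitation and sequencing (ChIP-seq) in Ishikawa cells, a human endometrial adenocarcinoma line, in hormone-stripped and in full media. The 2 region lists of this comparison held 37083 of the 528044 regions in the 45 lists of the series, 20625 from stripped media and 16458 from full media. A region was called shared when it overlapped a region of the other medium by at least 1 bp, and otherwise stripped-only or full-only. This rule used position alone, and no region was set aside.

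The series asked how regulatory regions of endometrial and breast cancer cells set the size, timing and variability of the response to estrogen, with SIN3A measured without estrogen induction. Cells of the stripped media group were kept in RPMI lacking phenol red, with charcoal-stripped serum, which removes steroid hormones. The full media group had RPMI with whole serum. Both SIN3A libraries had the same cell line, antibody and a labelled time of 1 h, and neither was given estradiol (E2). The series holds 19 other Ishikawa lists. Except for a list of H3K36me3 from full RPMI, which met no SIN3A region, they came from hormone-depleted cells given 10 nM E2 or DMSO as vehicle, proteins being mapped after 1 h and histone marks after 8 h, so each overlap of a full media region with a mark joins 2 growth conditions. Ishikawa cells are a single tumour-derived line. There was 1 library per medium, so the differences have no replicate check and no test was made. Intervals below are exact 95% binomial intervals and cover counting error only.

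SIN3A is a scaffold protein that holds the histone deacetylases HDAC1 and HDAC2 and does not itself recognise a DNA sequence. It is brought to genes by sequence-specific factors, among them the MAD family partners of MAX, which bind the E-box, and the repressor REST, which binds the RE1 element and silences neuronal genes outside the nervous system. SIN3A is found at many active start sites as well as at silenced genes. The estrogen receptor binds the estrogen response element (ERE), and factors of the C/EBP and ATF families can pair on a composite element that is known from genes of amino acid shortage and other stress.

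Full-only regions differed from shared and stripped-only regions in the DNA under their summits, and the following windows show the 3 elements on which the description turns. Each was read from the reference genome, build GRCh37 (hg19), with 30 bases on either side of the element, in the 5′ to 3′ direction on the strand given, and the element is in capitals. The first set holds an ERE (GGTCA, any 3 bases, TGACC) in full-only regions in an intron of CARS1 and of MGAT3, and between genes near MAPKAPK3 and FGF19.

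CARS1, chr11:3032221-3032293, plus strand: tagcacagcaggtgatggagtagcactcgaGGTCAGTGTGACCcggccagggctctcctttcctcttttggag
MGAT3, chr22:39878955-39879027, plus strand: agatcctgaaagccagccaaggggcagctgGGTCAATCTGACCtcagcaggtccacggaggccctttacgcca
MAPKAPK3, chr3:50642667-50642739, plus strand: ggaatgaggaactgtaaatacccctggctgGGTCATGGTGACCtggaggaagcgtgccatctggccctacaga
FGF19, chr11:69512137-69512209, plus strand: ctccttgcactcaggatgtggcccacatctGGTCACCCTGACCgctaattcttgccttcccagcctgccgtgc

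The next set holds RE1 (CAGCACC, any 2 bases, GGACAG). The regions in introns of RIMS4, HCN4 and LYPD5 (for which KCNN4 has the nearest start site) and between genes near PREX1 were full-only. The shared regions at the start site of XKR7 and at that of a noncoding transcript inside SNAP25 are shown to set the same letters in both classes side by side.

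KCNN4, chr19:44293380-44293454, minus strand: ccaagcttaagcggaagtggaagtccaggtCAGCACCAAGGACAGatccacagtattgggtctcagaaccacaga
PREX1, chr20:47139859-47139933, minus strand: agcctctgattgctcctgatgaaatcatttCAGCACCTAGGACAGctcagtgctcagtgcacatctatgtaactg
RIMS4, chr20:43408958-43409032, minus strand: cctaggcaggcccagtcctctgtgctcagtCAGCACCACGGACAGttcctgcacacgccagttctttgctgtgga
HCN4, chr15:73639216-73639290, plus strand: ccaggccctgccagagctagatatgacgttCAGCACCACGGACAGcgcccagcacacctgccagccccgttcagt
XKR7, chr20:30556329-30556403, plus strand: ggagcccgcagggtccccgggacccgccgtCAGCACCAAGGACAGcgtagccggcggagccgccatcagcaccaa
SNAP25, chr20:10200292-10200366, plus strand: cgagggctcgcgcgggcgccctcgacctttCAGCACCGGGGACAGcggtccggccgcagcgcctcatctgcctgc

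The last set holds the C/EBP-ATF element (TGATGCAA) in full-only regions at the start site of GARS1 and in introns of SNX9 and TRIB3, and in an intronic region for which SLC7A11 is the nearest coding gene.

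GARS1, chr7:30635736-30635803, plus strand: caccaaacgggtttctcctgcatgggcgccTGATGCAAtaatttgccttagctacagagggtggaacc
SNX9, chr6:158185851-158185918, minus strand: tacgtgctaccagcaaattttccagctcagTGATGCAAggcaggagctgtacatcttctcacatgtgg
TRIB3, chr20:352594-352661, plus strand: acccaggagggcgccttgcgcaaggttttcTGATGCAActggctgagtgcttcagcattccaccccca
SLC7A11, chr4:139120849-139120916, minus strand: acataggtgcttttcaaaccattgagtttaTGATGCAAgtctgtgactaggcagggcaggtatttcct

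The libraries differed in depth and in enrichment, which bears on every count that follows. From the deposited values the stripped media library was estimated at 6.60 Mtags (sequenced tags, with the mega prefix) and the full media library at 30.1 Mtags, the latter scaled by 0.505 to its control. Fold enrichment is the authors' ratio of ChIP tags to local background at a region's summit, and its median was 17.1 in stripped and 11.4 in full media. Stripped media regions covered 13.7 Mb with a median width of 558 bp, and full media regions 7.25 Mb with a median width of 353 bp. The full media list was thus deeper but shorter and less enriched, and the part of depth and enrichment in the differences below was not tested. The cell line was described by H3K4me3, the mark of active start sites, in DMSO-treated cells. It lay at the start sites of 8 of 9 markers of glandular epithelium, SOX17 being the exception, and of 2 of 9 markers of stromal, endothelial and blood cells. Among all 20090 coding genes, it lay at start sites of 10027 with a SIN3A region in both media and 1676 with neither. Genes with a region in the stripped or full list alone added 1792 and 37. The mark is thus common at coding genes, and the marker counts alone do not identify the line.

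Most SIN3A regions of full media were also found in stripped media. Of the full media regions 15180 (92.2%) were shared and 1278 (7.77%) were full-only. Of the stripped media regions 13356 (64.8%) were shared and 7269 (35.2%) were stripped-only. The 2 lists met in 11604 regions shared one to one, whose summits lay a median of 50 bp apart and within 100 bp in 76.3%. A further 1672 stripped media regions held 2 or more full media regions, at most 5. The median fold enrichment was 22.5 for shared and 11.8 for stripped-only regions of the stripped list, and 11.7 for shared and 9.62 for full-only regions of the full list. Medians of width were 748 bp and 323 bp in the stripped list, and 377 bp and 206 bp in the full list.

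Whether a stripped media region was also found in full media varied with its strength. Each list was divided by fold enrichment into 10 bins of equal size. All 2063 regions in the strongest bin of the stripped list were shared, 63.1% (61.0 to 65.2%) in bin 6 and 16.4% (14.8 to 18.1%) in the weakest bin. The full list was flatter, from 99.1% (98.6 to 99.5%) in its strongest bin to 88.1% (86.5 to 89.7%) in its weakest. Stripped-only regions were therefore mostly the weak end of their list, with a median of 20 estimated tags at the summit against 42 for shared regions. Full-only regions had a median of 45 tags against 57. Near the limit of the rule, 72 full-only regions (5.63%) lay within 200 bp of a stripped media region, and 21 shared full media regions overlapped by at most 50 bp. As a yardstick from another antibody and line, replicates of RNA polymerase II in T-47D breast cancer cells shared 78.5% and 86.8% of the shorter list. Of their longer list 63.1% and 59.8% had no partner, against 35.2% of the stripped media list here. The longer list held 1.85 and 1.98 times the regions of the shorter one, against 1.25 times for the SIN3A lists.

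**Figure D1:**
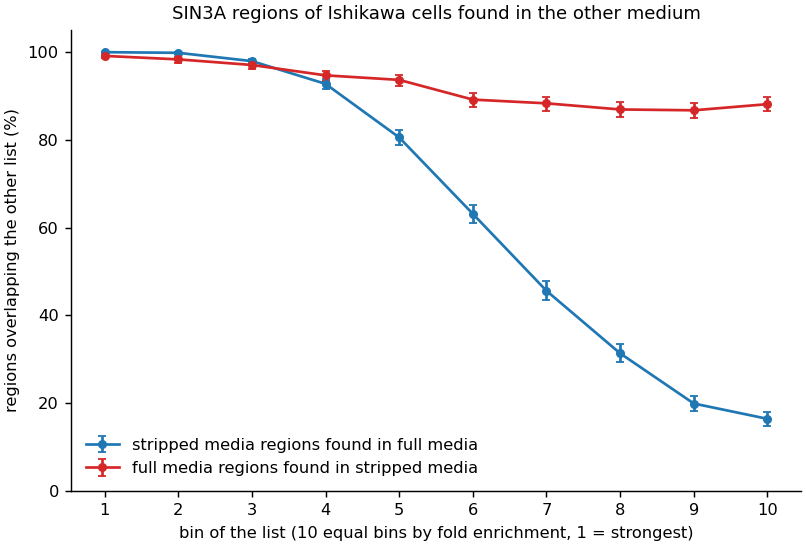
Share of SIN3A regions that overlapped the list of the other medium (%), by bin of each list in order of fold enrichment, with bin 1 the strongest. Points are shares and bars exact 95% intervals. The stripped media line falls from 100% to 16.4%, and the full media line stays at or above 86.7%.

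Shared regions sat mostly at start sites and at H3K4me3. Stripped-only regions sat mostly at H3K4me3 but were divided between start sites and other places. Full-only regions sat mostly away from both. An annotated start site lay within 250 bp of 75.2% (74.5 to 75.8%) of shared full media regions, 50.5% (49.3 to 51.6%) of stripped-only regions and 16.0% (14 to 18.1%) of full-only regions. Of the full-only regions 638 (49.9%) were intronic and 353 (27.6%) intergenic, against 28.0% and 15.2% of stripped-only regions. The median distance of full-only regions to a coding start site was 13444 bp, against 585 bp for stripped-only and 123 bp for shared full media regions. H3K4me3 overlapped 93.3% of shared full media, 85.4% (84.6 to 86.2%) of stripped-only and 27.4% (24.96 to 29.9%) of full-only regions. The separation was also seen at start sites, where 94.5% of stripped-only and 59.8% of full-only regions met H3K4me3, and away from them, where the shares were 76.1% and 21.2%.

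Full-only and shared regions of like strength were still far apart. Among full media regions of fold enrichment 10 to 12, H3K4me3 met 92.7% (91.6 to 93.6%) of 2848 shared and 27.6% (22.8 to 32.8%) of 319 full-only regions. At 15 to 20 it met 94.6% of 2464 shared and 6 of 51 full-only regions, or 11.8% (4.44 to 23.9%). In the stripped list shared and stripped-only regions of like strength were closer at H3K4me3, and the gaps had both signs. Shared regions met it in 92.8% and stripped-only regions in 91.6% at fold enrichment 15 to 20, and in 97.2% and 92.8% at 20 or more. At 10 to 12 the stripped-only share was the higher one, 83.3% (81.7 to 84.9%) against 78.1% (74.5 to 81.3%), as at 8 to 10 (82.0% against 71.6%). Start site shares differed more, with 71.2% of shared and 59.6% of stripped-only regions at 15 to 20.

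The place of full-only regions depended on how overlap was defined. When each region had to be covered for 50% by its partner, narrow regions inside wide ones no longer counted as shared, the full-only class grew to 7587 regions, and H3K4me3 met 85.1% of them. With windows of 100 bp either side of each summit the class held 4277 regions, 76.3% of them at H3K4me3. The account of full-only regions therefore holds for full media regions that touch no stripped media region.

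The other lists of the same line did not order the classes alike. TAF1, a subunit of the general transcription factor TFIID, met 91.5% of shared full media, 65.9% of stripped-only and 15.4% of full-only regions in DMSO. MAX in DMSO met 17.1%, 4.24% (3.79 to 4.73%) and 3.21% (2.31 to 4.33%), which did not separate the single-medium classes, and after E2 it met 9.67%, 2.71% (2.35 to 3.11%) and 6.65% (5.35 to 8.16%). H3K4me1, which marks enhancers and promoter flanks, met 10.2% of shared full media, 28.7% of stripped-only and 25.4% (23.1 to 27.9%) of full-only regions. Neither H3K4 mark was found at 721 full-only regions (56.4%), against 8.28% of stripped-only and 4.91% of shared full media regions. As many as 342 full-only regions (26.8%, 24.4 to 29.3%) overlapped no other Ishikawa list at all, against 3.23% and 0.995%.

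The lists of c-JUN after E2 and LSD1 in DMSO did overlap full-only regions often. The AP-1 subunit c-JUN after E2 met 639 full-only regions (50%), close to the 52.7% of shared full media regions and above the 28.0% of stripped-only regions. In DMSO, c-JUN met 14.8%, 9.37% and 6.70% in the same order. LSD1, a demethylase of H3K4 that works with corepressors, met 27.5% of full-only, 28.4% of shared full media and 16.8% of stripped-only regions in DMSO. After E2 it met 25.3% (22.9 to 27.8%), 61.6% and 43.2%, so full-only regions were then the lowest of the 3 classes. LSD1 regions found in DMSO and not after E2 set the full-only class apart, since they met 198 full-only regions (15.5%, 13.6 to 17.6%) but 1.14% of shared full media and 1.03% of stripped-only regions. Of those 198, 190 (96.0%) also met c-JUN after E2, 182 (91.9%) lay away from start sites and 42 (21.2%) met H3K4me3. The retinoic acid receptor RARA after E2 met 10.1% of full-only, 13.3% of shared full media and 3.82% of stripped-only regions. The lists themselves differed in length, c-JUN holding 18311 regions after E2 and 3768 in DMSO, and LSD1 18384 and 8618, and the part of list length in these shares was not tested.

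**Figure D2:**
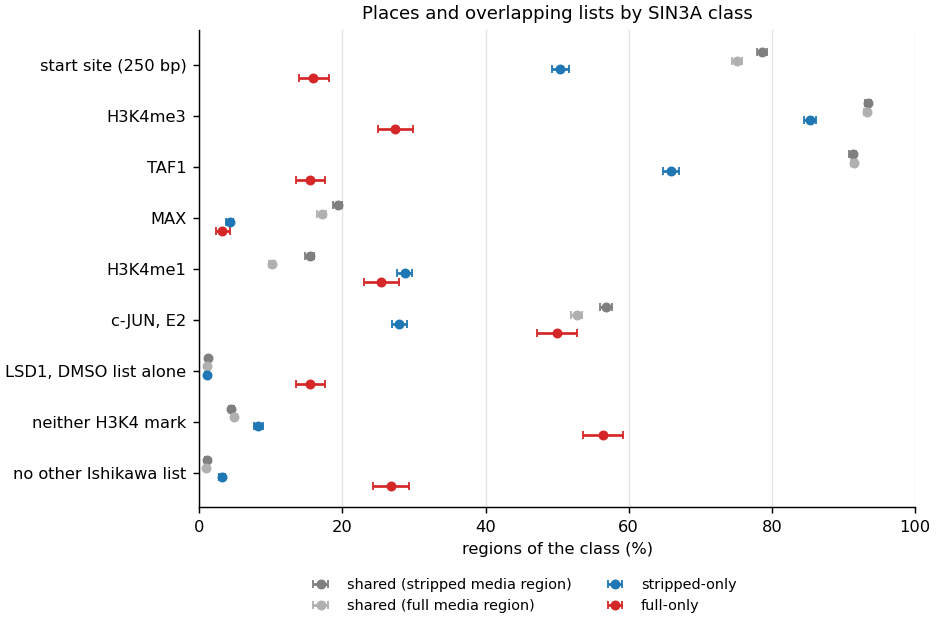
Share of each SIN3A class (%) within 250 bp of a start site, overlapping another Ishikawa list (DMSO unless E2 is named), or overlapping none. Points are shares and bars exact 95% intervals. Full-only regions lie far below the other classes for start sites, H3K4me3 and TAF1, and far above them for regions with neither H3K4 mark (56.4%).

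The strongest regions of each class showed the same places. Of the 10 stripped-only regions with the highest fold enrichment, 10 met H3K4me3 and 9 lay at start sites. They were led by the cell cycle gene CCND2 (cyclin D2; chr12:4378456-4379004, fold enrichment 31.4), TBC1D8 (30.9), the urothelial plaque gene UPK3B (30.2), the atypical protein kinase C gene PRKCZ (28.3) and the small GTPase gene CDC42 (27.9). A region with ADRA2C as its nearest coding gene (27.9), SLC16A9 (27.5), the histone chaperone gene NAP1L4 (27.3), ARHGAP31-AS1 (27.2) and LINC03080 (26.96) followed.

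None of the 10 strongest full-only regions met H3K4me3 or lay at a start site. A pair stood above the rest, one in an intron with the adhesion gene CADM3 nearest (chr1:159147105-159147437, 47.7) and one 210862 bp from the start of the kinase gene PKDCC (chr2:42064106-42064454, 41.0), and neither met any of the mark, TAF1, LSD1 or c-JUN lists. The others were nearest to ADCYAP1R1, the receptor of the neuropeptide PACAP (27.5), HPF1 (27.01), the ubiquitin ligase gene HACE1 (23.2), ZNF318 (22.97), the sodium channel gene SCN10A (22.3), NT5C2 (21.6), the phospholipase C gene PLCE1 (21.5) and PLEKHA2 (21.5). The 4 genes with the most full-only regions nearest to them, which were looked up after the values were seen, were ZNF608 with 7, MYC with 6, and ARRDC3 and TRIB1 with 5 each. For stripped-only regions they were CXXC5 with 19, NTMT1 with 18, ZMIZ1 with 17 and GSE1 with 14. These counts were not set beside those of all SIN3A regions nearest to the same genes, nor beside the distance between genes.

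The regions that were strongest in both media joined RE1 elements and promoters. Ordered by the lower of the pair of fold enrichments, they were led by a region in an intron with SMIM17 nearest (stripped 140, full 75.6), the start site of XKR7 with the RE1 shown above (127 and 72.8), and an intergenic RE1 near the homeobox gene NKX1-1 (93.2 and 59.4). CELSR3, a cadherin of neurons, followed with a region in a coding exon (104 and 58.2). The start sites of TICRR, a replication initiation gene (80.6 and 57.8), HMGB1, a chromatin protein gene (96.5 and 57.5), UTP20 (93.8 and 55.8), SCFD2 (111 and 55.4) and SLC39A3 (80.9 and 55.2) were also among the 10. An intergenic RE1 nearest to the homeobox gene LHX2 was the only one of the 10 with the higher value in full media (56.2 and 60.3).

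Fold enrichment in shared regions was lower in full media nearly throughout. Over the 11604 one-to-one pairs, the median ratio of full to stripped fold enrichment was 0.554, or -0.85 on the log2 scale (SD 0.46 across pairs), and 551 pairs (4.75%) were higher in full media. Across the pairs the log2 values had a Pearson r of 0.73 and a Spearman rank correlation of 0.71, as a description over regions of 2 libraries. Because the overall shift moves with depth and background, the log2 ratio minus its median over all pairs is used below and called the relative ratio. It was at least 1 in 293 pairs and at most -1 in 132.

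Pairs away from promoters had the higher relative ratios. The median relative ratio was 0.44 in 966 pairs without H3K4me3 and -0.03 in 10638 pairs with it, and 0.19 in 2992 pairs away from start sites and -0.05 in 8612 pairs at them. The 137 pairs with RE1 in the full media window had a median of 0.47, and 114 of them (83.2%) were above the median of all pairs. That was close to the 966 pairs without H3K4me3, of which 785 (81.3%) were above it. Whether RE1 pairs differ from other pairs without H3K4me3 was not tested. The 38 pairs with the C/EBP-ATF element had a median of 0.41, with 30 above. Pairs with a GC box (-0.04, n = 2894), an ETS motif (-0.04, n = 928) or an E-box (0.01, n = 699) stayed near 0.

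The single regions at the ends of this order followed the same division. The highest relative ratios were in introns of SLC6A6, a taurine transporter gene (8.75 in stripped, 24.2 in full media, relative ratio 2.32), of SORCS3 with an RE1 (9.56 and 25.2, 2.25) and of RUNX2 (7.82 and 20.1, 2.22), at the start site of the neuronal splicing gene SRRM3 (10.9 and 27.3, 2.18), and just upstream of the start of ATF6, a factor of the unfolded protein response (8.17 and 19.7, 2.12). Of these 5, 4 had no H3K4me3. The lowest were start sites with H3K4me3, at HSPB6 and PROSER3 (36.02 and 6.16, -1.70), noncoding transcripts near ZBTB20 (28.1 and 5.05, -1.62), HIPK3 (33.3 and 6.06, -1.61), SPINT1 (29.5 and 5.45, -1.58) and LPCAT3 (36.3 and 6.76, -1.57). Both ends hold values near the floor of a list. Stripped media values at the upper end were 7.82 to 10.9, and the weakest stripped bin reached 9.86. Full media values at the lower end were 5.05 to 6.76, and the weakest full bin reached 7.57.

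**Figure D3:**
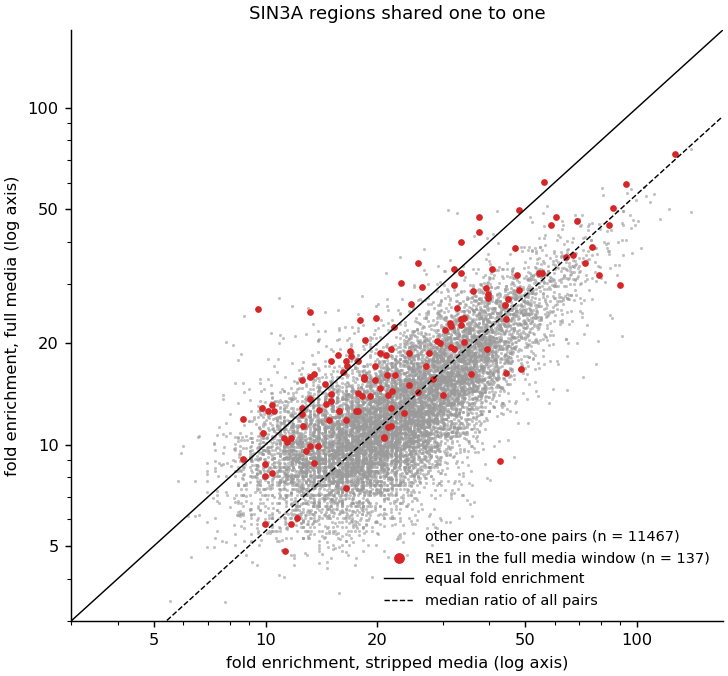
Fold enrichment of SIN3A regions shared one to one, stripped media on the horizontal and full media on the vertical axis, both log axes. Each point is a pair, red where the full media window held an RE1 (n = 137). Most points lie under the line of equality, along the median ratio of 0.554, and the red points lie mostly above that median line. Of the 966 pairs without H3K4me3, not coloured apart, 81.3% also lie above it.

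Motifs were counted in 101 bp windows centred on the summit, on both strands, and each share is given beside that of equal windows at all annotated start sites of coding genes. The GC box (GGGCGG), bound by SP and KLF factors, was in 25.5% of shared full media, 24.4% of stripped-only and 5.09% (3.95 to 6.44%) of full-only windows, against 22.1% of coding start sites. ETS (CCGGAAG) was in 7.21%, 1.99% and 1.095%, against 5.21%, and the E-box (CACGTG) in 5.70%, 2.78% and 3.05%, against 2.54%. The GC box and ETS motif were scarcer in full-only than in shared windows, and full-only windows were also less rich in G and C. Mean GC content was 64.5% in shared full media, 64.7% in stripped-only and 51.5% in full-only windows, near the 53.7% of H3K4me1 summits. NRF1 motifs (GCGC, any 2 bases, GCGC) were in 1.90%, 1.21% and 0.156% of the 3 classes and 3.41% of coding start sites. YY1 (AAGATGG) was in 1.93%, 0.977% and 0.704%, against 3.31%, and CRE (TGACGTCA) in 0.870%, 0.330% and 0.0782%, against 0.666%.

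TEAD, AP-1, forkhead and CCAAT motifs were more frequent in full-only than in shared full media windows. TEAD (GGAATG), the motif of the Hippo pathway factors, was in 12.1% (10.4 to 14.04%) of full-only, 4.97% of shared full media and 5.26% of stripped-only windows, against 4.12% of coding start sites and 7.68% of H3K4me1 summits. AP-1 (TGANTCA) was in 6.18% (4.92 to 7.64%), 2.48% and 2.39%, against 1.99% and 3.65%. Forkhead (TGTTTAC) was in 2.27% (1.52 to 3.24%), 1.16% and 0.853%, against 0.906% and 1.02%. The CCAAT box (CCAAT) was in 12.3% (10.5 to 14.2%) of full-only and 8.90% of shared full media windows, with 10.5% of coding start sites and 11.1% of H3K4me1 summits. Away from start sites most of these differences were smaller. There TEAD was in 12.8% (10.8 to 14.9%) of full-only and 9.41% (8.50 to 10.4%) of shared full media windows. AP-1 was in 6.70% (5.28 to 8.37%) and 5.06% (4.39 to 5.81%), with overlapping intervals. Forkhead was in 2.05% (1.29 to 3.08%) and 1.75% (1.36 to 2.22%), also overlapping, and CCAAT stayed at 12.4% and 8.75%. Among the 198 full-only regions in the DMSO list of LSD1 alone, TEAD was in 41 windows (20.7%, 15.3 to 27.02%) and AP-1 in 20 (10.1%, 6.28 to 15.2%), and neither RE1 nor ERE was in any.

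Most SIN3A windows with an ERE were full-only. The ERE was in 18 full-only windows (1.41%, 0.837 to 2.22%), in 4 of 15180 shared full media windows (0.0264%, 0.00718 to 0.0675%) and in 0 of 7269 stripped-only windows, whose upper limit was 0.0507%. It was in 0.0123% of coding start sites and 0.0106% of H3K4me1 summits. Of the 18 regions, 15 met c-JUN after E2 and 2 met c-JUN in DMSO, and 13 met LSD1 after E2 and 4 in DMSO. Over all full-only regions c-JUN met 50% after E2 and 14.8% in DMSO, and LSD1 25.3% and 27.5%. The ERE regions were above their class for both proteins after E2 and near it in DMSO. None of the 18 met H3K4me3, 5 met H3K4me1, and 17 lay away from start sites. Their fold enrichment was modest, with a median of 9.30 and a maximum of 13.9.

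The ERE regions, named here after their values were seen, included those in introns of CARS1, a cysteinyl-tRNA synthetase gene (chr11:3032120-3032445, 13.9), and MGAT3, a glycosyltransferase gene (12.9). Intergenic ones lay nearest to the LIM domain gene FHL2 (11.1), the Mediator gene MED13L (10.97), the kinase gene MAPKAPK3 (10.8) and FGF19, a hormone of bile acid control that neighbours CCND1 (8.96). All 4 shared regions with an ERE met H3K4me3.

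RE1 was found in every class and was most frequent in the full-only one. It was in 41 full-only windows (3.21%, 2.31 to 4.33%), 138 shared full media windows (0.909%, 0.764 to 1.07%) and 12 stripped-only windows (0.165%, 0.0853 to 0.288%), against 0.00890% of coding start sites and 0 of 28411 H3K4me1 summits. Away from start sites the difference between classes was smaller, with 3.54% (2.52 to 4.82%) of full-only, 2.68% (2.19 to 3.25%) of shared full media and 0.250% of stripped-only windows. RE1 and the C/EBP-ATF element were taken up after a comparison of 8-letter words in full-only windows, so their frequency in that class is a description of what chose them.

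The RE1 regions of the full-only and shared classes differed in the lists they met. LSD1 after E2 met 98 of the 138 shared RE1 regions (71.0%, 62.7 to 78.4%), 9 of the 12 stripped-only ones and 2 of the 41 full-only ones (4.88%, 0.596 to 16.5%). LSD1 in DMSO met 36 shared and 0 full-only RE1 regions. Over all regions of each class LSD1 after E2 met 61.6% of shared full media, 43.2% of stripped-only and 25.3% of full-only regions. The shared RE1 regions were therefore above their class, whose share lay just under their interval, and the full-only ones below theirs. The interval of the 12 stripped-only ones (75%, 42.8 to 94.5%) held their class share. H3K4me3 met 31 of the shared regions and 0 of the full-only ones, whose upper limit was 8.60%. Of the 342 full-only regions found in no other Ishikawa list, 38 (11.1%, 7.98 to 14.9%) held RE1, against 3 (0.321%, 0.0661 to 0.934%) of the 936 found in another list. The median fold enrichment in full media was 11.8 for full-only and 17.2 for shared RE1 regions.

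Genes nearest to the full-only RE1 regions are named here after their values were seen and were not tested as a group. They included the potassium channel gene KCNN4 (20.5), RIMS4, a gene of synaptic vesicle release (17.4), the pacemaker channel gene HCN4 (16.9), LINGO1 (16.7), the neuronal pentraxin receptor gene NPTXR (14.4), the glutamate receptor gene GRM8 (11.8), the dopamine receptor gene DRD3 (10.3), the calcium channel gene CACNA2D3 (10.1) and the neurotrophin gene BDNF (9.59). Others were nearest to genes with no such role, such as PREX1 (19.96), the keratin gene KRT76 (14.9) and RSF1 (14.6). DRD3, BDNF and USP7 (12.4) were the 3 of 41 whose region lay at a start site.

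The C/EBP-ATF element was in 39 full-only (3.05%, 2.18 to 4.15%), 52 shared full media (0.343%, 0.256 to 0.449%) and 8 stripped-only windows (0.110%), against 0.250% of coding start sites and 0.257% of H3K4me1 summits. Unlike the RE1 regions, 14 of these 39 met H3K4me3 and 13 met c-JUN after E2, and 34 lay away from start sites. H3K4me3 met 47 of the 52 shared regions with the element. With windows of 100 bases on either side of the summit the shares were 4.85% and 0.547%.

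Genes at or near the full-only C/EBP-ATF regions, again named after the values were seen, included the glycyl-tRNA synthetase gene GARS1 (start site, 14.5), CARS1 (11.8), the cystine transporter gene SLC7A11 (9.76), the stress kinase-like gene TRIB3 (10.4), the stress-induced gene SESN2 (6.36), ERN1, a sensor of the unfolded protein response (9.59), VEGFA (12.9) and the oxidative stress factor gene NFE2L2 (9.09). The strongest were nearest to SNX9, a sorting nexin gene (17.9), and CAST, the gene of the calpain inhibitor (16.6).

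**Figure D4:**
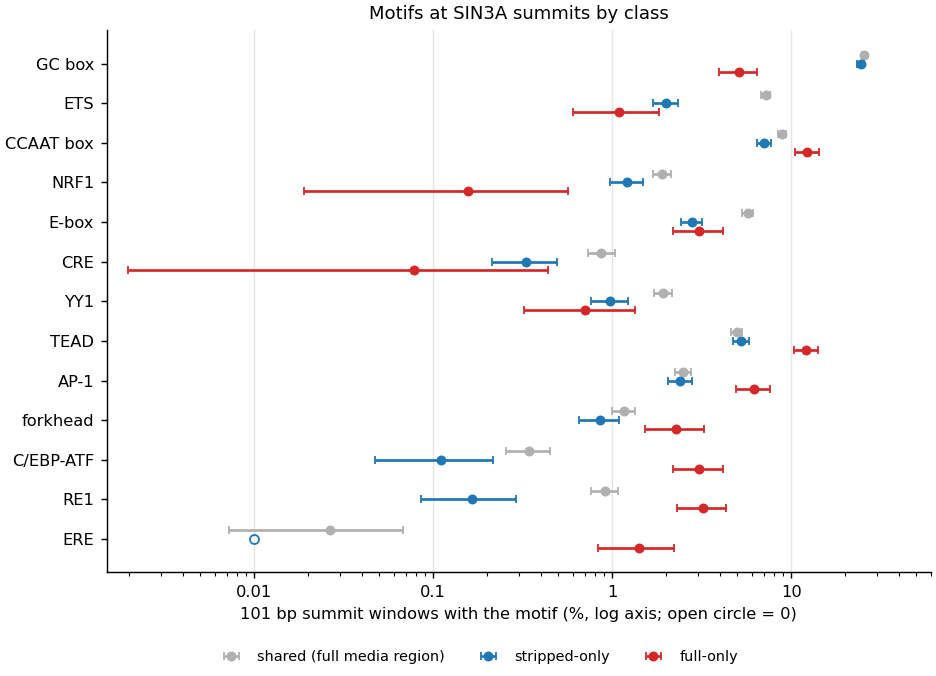
Share of 101 bp summit windows with each motif (%, log axis) in shared full media, stripped-only and full-only SIN3A regions. Points are shares, bars exact 95% intervals, and the open circle stands for 0 and has no position on the log axis. Full-only windows are lowest for the GC box (5.09%) and highest for TEAD, AP-1, forkhead, C/EBP-ATF, RE1 and ERE.

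At coding genes, more start sites were found in stripped media alone than in full media alone. Of 20090 coding genes, 59.5% had a stripped media region within 250 bp of a start site, 50.5% a full media region, 50.3% both, 9.22% (1852) one in the stripped list alone and 0.239% (48) one in the full list alone. The single-medium counts depended on the overlap rule and thresholds. They were 4799 and 3066 with a reciprocal overlap of 50%, and 3522 and 31 with a fold enrichment of at least 10, while the full-alone count was 419 with summit windows and 174 with the stripped list shortened to the length of the full list. For genes with both, the median fold enrichment at the start site was 26.96 in stripped and 13.97 in full media, a median log2 ratio of -0.92, which was set to 0 for the relative values of genes. On that scale 1.03% of the 10100 genes with both were at least 1 and 1.13% at most -1. H3K4me3 lay at the start sites of 99.3% of genes with both, 96.8% with a stripped media region alone, 77.1% with a full media region alone and 20.7% with neither. For 201 genes of the stripped-alone group the region met a full media region just outside the start site window. SNAP25, a gene of vesicle fusion in neurons, was among them, with a stripped media region of 86.2 and a full media region of 50.5 holding the RE1 shown above.

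SIN3A regions lay at the start sites of nearly all genes of its own complex. Of 21 genes, 19 (90.5%) had both, against the 50.3% of all coding genes, RBBP7 had a stripped media region alone (14.5) and SIN3B had neither. All 21 had H3K4me3 at a start site, as had 99.3% of coding genes with both and 20.7% of those with neither. The 50.3% is over all coding genes, marked or not, and the lists were not compared with marked genes alone. The share with both was also high for ribosomal protein (100%), E2F cell cycle (96.6%), immediate early (90.9%) and sterol synthesis genes (89.3%). Every other list was at 75% or below. SIN3A itself had 43.8 in stripped and 13.98 in full media, the deacetylase genes HDAC1 18.7 and 8.75 and HDAC2 24.4 and 8.96. The median relative ratio of the 19 was -0.33, with 5 above 0. The lowest was the tumour suppressor gene ING1 (40.8 and 11.6, -0.89) and the highest SUDS3, a subunit that joins the deacetylases (16.4 and 14.5, 0.74). Between them lay SAP18 (20.1 and 13.4), SAP30 (29.98 and 16.2), SAP30L (42.3 and 16.9), SAP130 (29.1 and 10.6), ARID4A (30.8 and 15.8), ARID4B (36.03 and 12.97), RBBP4 (39.7 and 19.1), ING2 (44.3 and 25.6), BRMS1 (59.5 and 24.9), BRMS1L (22.5 and 15.2), SINHCAF (39.4 and 14.9), the demethylase gene KDM5A (41.3 and 14.1), PHF12 (27.7 and 11.6) and MORF4L1 (20.6 and 10.3). In each of the 19 the stripped media value was the higher, as in nearly all shared regions at start sites. Of the 8612 one-to-one pairs there, 212 (2.46%) were higher in full media.

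Genes of factors that recruit SIN3A were close to the median of all genes. Of 18, 13 (72.2%) had both, with a median relative ratio of -0.09, and FOXK1 had neither. A stripped media region alone was at 4 (22.2%). Over all coding genes 50.3% had both and 9.22% a stripped media region alone. The 4 were KLF13 (23.7), KLF16 (17.8), KLF11 (17.1) and FOXK2 (16.4). In the MAX network, MAX had 39.1 in stripped and 22.6 in full media, MXD1 41.3 and 17.2, MXI1 31.8 and 23.9, MXD3 54.0 and 22.1, MXD4 19.4 and 9.62, MNT 62.6 and 23.1, MGA 28.4 and 17.2, and MLX 23.1 and 8.83. REST had 22.5 and 10.6, and the Krüppel-like factors KLF10 and KLF9 had 48.6 and 24.7, and 18.3 and 17.1.

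Neuronal genes that REST is known to repress had the highest median among the lists with more than 4 genes in both media. Of 18, 13 (72.2%) had both, against 50.3% of all coding genes, with a median relative ratio of 0.36 and 11 above 0. A stripped media region alone was at 3 (16.7%, against 9.22% of all coding genes), SNAP25, SCG2 with 13.99 and SYN1 with 13.4. UNC13A, which primes synaptic vesicles, was at 14.5 in stripped and 24.7 in full media (relative ratio 1.70), and the granin gene CHGA was at 26.3 and 29.5 (1.09). Lower ones were the granin gene CHGB (29.5 and 20.03, 0.36) and the neurosecretory gene VGF (63.1 and 44.7, 0.43). BDNF went the other way (-0.86), with its strongest stripped media region (33.1) and its full-only RE1 region (9.59) at different start sites.

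Estrogen-induced genes were divided. Of 24, 14 had both (58.3%, against 50.3% of all genes), with a median relative ratio of 0.16 and 10 of 14 above 0. PEG10 (9.71 and 12.3, 1.26), the cyclin D1 gene CCND1 (15.8 and 17.2, 1.04) and the progesterone receptor gene PGR (13.4 and 13.5, 0.93) were at the upper end, and the proto-oncogene MYB at the lower (42.3 and 9.93, -1.17). PEG10, CCND1 and PGR were all below the median stripped media value of 26.96 for genes with both. The value of PEG10 lay in the weakest stripped bin, which reached 9.86. The part of low stripped media values in these ratios was not tested. GREB1 had a full media region alone (7.53). TFF1, TFF3, IGFBP4, CXCL12, PDZK1, AREG, CA12 and ELOVL2 had neither, 8 of the 24. Over all coding genes 40.3% had neither.

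At 3 of these loci there were regions of single media inside the gene. GREB1, a cofactor gene of the estrogen receptor, held a full-only region of 18.1 in an intron 16419 bp from its start (chr2:11638695-11639001) and the one of 7.53 at an internal start site, and both met LSD1 and c-JUN after E2 and no H3K4 mark. Near its first start site it held a stripped-only region of 10.6 at H3K4me3. TGFA, a ligand of the EGF receptor, held 3 full-only intronic regions (10.4, 9.43 and 8.72), of which 1 met H3K4me1, and a shared start site region (14.5 and 12.6). PEG10 held a stripped-only region of 11.4 in an intron beside its shared start site region.

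Other hormone and housekeeping lists gave the range in which these values lie. Over all coding genes 50.3% had both and 9.22% a stripped media region alone. Among glucocorticoid-induced genes 9 of 12 had both (median -0.14) and 3 a stripped media region alone, ZBTB16 (22.4), TSC22D3 (15.1) and MT2A (12.2). Among retinoid targets 4 of 10 had both (0.28), and CRABP2 (11.8) and STRA6 (9.86) were among those with a stripped media region alone. Of 22 immediate early genes 20 had both (-0.23), and CCN2 (8.69) had a stripped media region alone. The 28 of 29 E2F cell cycle genes with both had a median of -0.19, CCNE1 (9.01) being found in stripped media alone and MYBL2 standing apart at 18.4 and 20.6 (1.09).

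The 74 ribosomal protein genes all had both, with a median of -0.03. Of 28 sterol synthesis genes 25 had both (-0.09), and SQLE (13.5) was among those with a stripped media region alone. Of 17 transcription factors of the Müllerian tract 6 had both (0.11), and WT1 (9.37) had a full media region alone. NR2F2 (12.5), HOXA13 (12.01) and HAND2 (9.86) had a stripped media region alone (17.6% of the list, against 9.22% of all coding genes). Of the epithelial markers EPCAM (23.6) and MUC1 (19.3) had a stripped media region alone, and among the other cell markers PDGFRB (11.6) did. Of 6 steroid receptor genes 4 had both (0.05), and ESR1 was among those with neither.

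**Figure D5:**
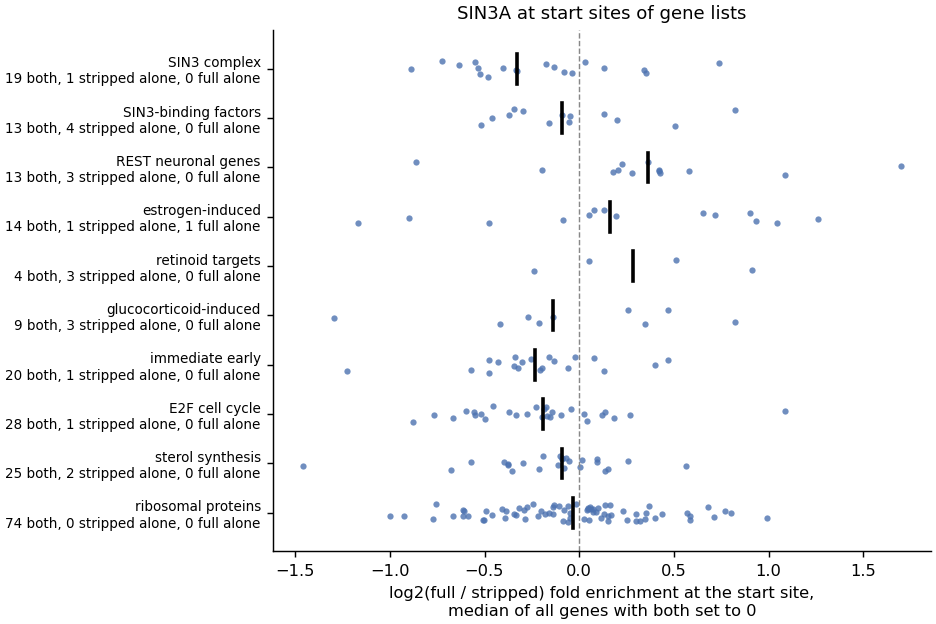
Log2 ratio of full to stripped fold enrichment at start sites, with the median of all genes with both set to 0, for the genes of 10 lists. Each point is a gene with a region in both media, and bars are list medians. The REST neuronal genes have a median of 0.36 and the SIN3 complex genes of -0.33, while the ribosomal protein genes sit at -0.03.

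SIN3A regions of T-47D cells fell mostly in the shared class. Of the 649 T-47D regions of full media 629 (96.9%, 95.3 to 98.1%) met a shared Ishikawa region, 8 a stripped-only region, 2 a full-only region and 10 none. Of the 75 of stripped media 62 (82.7%, 72.2 to 90.4%) met a shared region, 4 a stripped-only region, 0 a full-only region and 9 none. The T-47D lists were far shorter than the Ishikawa ones, so an Ishikawa region missing from them says nothing of SIN3A there.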

How the data were processed

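Peak lists of single ChIP-seq libraries were used. The authors aligned 50 bp reads to hg19 with Bowtie 1.1.2, discarding reads without a unique best position, and used each library alone to call peaks with MACS2 2.1.0.20140616 (versions per the submitters' processing notes). The deposited fold enrichment of a peak is a ratio of ChIP tags to local background, taken at its summit by the authors. They also deposited the −log10 p-value, the −log10 q-value, and a score of 10 times the −log10 p-value. The smallest −log10 p-value was 10.2 in the stripped and 10.1 in the full media list, so each list ends at about the same p at a different depth.

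Lists were intersected with at least 1 bp of overlap, in Python 3.11.15 with pandas 2.3.3, NumPy 2.4.6 and pysam 0.24.0. Intervals are Clopper-Pearson at 95% (SciPy 1.17.1). Start sites, with 250 bp either side, came from GENCODE release 44 on GRCh37. Where a gene had several regions, the highest fold enrichment was used. Pileups were recovered from fold enrichment and p-value, and tag numbers estimated with an assumed mappable genome of 2.7 Gb. Motifs were matched as exact letters in 101 bp summit windows on both strands, and overlaps between motifs were allowed. Coordinates are 1-based. The class counts, depth estimate and motif counts were checked on simulated data.

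Regions were named by their start site gene or nearest coding gene: the 10 strongest stripped-only, full-only and shared regions, the 5 highest and 5 lowest relative ratios of one-to-one pairs on chromosomes 1 to 22 and X, all members of the SIN3 complex and recruiter lists, up to 6 single-medium members of every other list, and the loci of TGFA, PEG10 and GREB1. A few genes covered by the rule or the lists are left unreported. Genes outside this rule were chosen after their values were seen, as were both motifs named so in the text. The regions compared and all lists were chosen with earlier results of these data known. Input libraries were not analysed here. Alternatives were another overlap rule, stricter thresholds, a shortened stripped list, summit windows, marks of E2-treated cells and a wider start site window.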

Additional observations from a re-analysis of the deposited data

Results flagged for a closer look

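The number of SIN3A regions moved in opposite directions with medium in the 2 cell lines. Ishikawa had 20625 regions in stripped and 16458 in full media, a log2 ratio of -0.33. T-47D had 75 in stripped and 649 in full media, a log2 ratio of 3.11. The ratios differed by 3.44 on the log2 scale. The difference was not tested, since each line had 1 library per medium. Median fold enrichment was 17.1 and 11.4 in Ishikawa, and 8.93 and 10.1 in T-47D, and the part of depth and enrichment in the region numbers was not tested.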

How the results depend on the processing

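No paired analysis was possible because each medium had 1 library, and no library could be left out. Values below are given as shares at H3K4me3, at H3K4me1 and at a start site. With a reciprocal overlap of 50%, shared regions fell to 8871, and stripped-only regions numbered 11754 (90.02%, 24.8% and 61.6%) and full-only regions 7587 (85.1%, 11.5% and 63.1%). Genes with a start site in 1 medium alone rose to 4799 for stripped and 3066 for full media. With windows of 100 bp either side of each summit, full-only regions numbered 4277 (76.3%, 9.73% and 55.3%), stripped-only regions met H3K4me1 in 21.5%, and 419 genes had a full media region alone. By construction, narrow regions inside wide ones change class under both rules. With a fold enrichment of at least 10 there were 652 full-only regions, stripped-only shares of 89.5%, 24.3% and 60.4%, and 3522 and 31 genes of stripped and full media alone. With a −log10 q-value of at least 20 there were 8406 shared and 504 full-only regions, stripped-only shares of 91.8%, 22.8% and 65.0%, and 3488 genes of stripped media alone. With the stripped list shortened to the length of the full list there were 3781 stripped-only regions (88.8%, 27.4% and 56.0%) and 1947 full-only regions, 42.3% at H3K4me3 and 23.1% at a start site, and 174 genes of full media alone. H3K4me1 of E2-treated cells met 25.7% of stripped-only and 17.8% of full-only regions. With 1000 bp either side of a start site the start site shares were 67.0% and 25.4%. The remaining 22 values stayed within 1.5 times the count or within the interval given in the report. With motif windows of 100 bases either side, an alternative chosen after seeing the data, full-only shares were 1.80% for ERE and 3.21% for RE1, against 0.0461% and 0.955% of shared full media windows. Counting error, the estimated depth of 6.60 and 30.1 Mtags and the lack of a second library per medium limit all of these values.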
